A study of Mus musculus with 6 samples.

Results

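Of 10 genes of glycolysis, none was called different between mandibular-derived and femur-derived monocytes at thresholds of 0.05 for the adjusted p and 2 for the fold change, where 5.18% of 18114 tested genes were. Of 77 genes of the respiratory chain, the mitochondrial pathway that oxidizes the products of glycolysis further, 9 were called lower in the mandible and none higher. The 10 genes are Slc2a1, Hk2, Pfkl, Aldoa, Gapdh, Pgk1, Pgam1, Eno1, Pkm and Ldha, and they were taken by name, without use of their values, from a count table of 57010 genes. The names matched 11 rows, since a further short gene on chromosome 7 also carries the name Aldoa. That row held 0 to 31 counts per library, did not pass the filter on low counts and is left aside. The other 10 rows passed it. Monocytes, the blood and marrow cells from which osteoclasts form, were enriched by negative selection from the marrow of the femur or of the mandible of C57BL/6 mice that were 1 year old, and RNA was sequenced in bulk. The femur libraries are S13, S15 and S18 and the mandible libraries S16, S19 and S23, 3 per skeletal site, and no treatment or altered gene was named for any of them. The study used male and female mice, but the labels do not tell the sex, animal or batch of a library, so p-values measure the spread between these libraries, which may in part be technical. The question here is whether the lower respiratory chain genes of the mandible were accompanied by a change in the genes of glycolysis.

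Glycolysis turns a molecule of glucose into pyruvate in the cytosol and yields a small amount of ATP without oxygen. Glucose enters the cell through a transporter such as that of Slc2a1 (GLUT1), hexokinase (Hk2) and phosphofructokinase (Pfkl) add phosphate groups to the sugar, and aldolase (Aldoa) splits it. The lower steps, from Gapdh through Pgk1, Pgam1 and Eno1 to Pkm, recover the ATP, and lactate dehydrogenase (Ldha) reduces pyruvate to lactate. Pyruvate that enters the mitochondrion instead feeds the TCA cycle and, through it, the respiratory chain. Most steps are shared by several isoenzymes, encoded by different genes that tissues such as skeletal muscle, red cells and sperm use in their own proportions. Cells of the myeloid lineage, osteoclasts included, are known to shift between glycolysis and respiration as they are activated and differentiate.

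The libraries held 15718782 to 25371474 counts on genes, and expression is given as CPM, the counts of a gene relative to its library total after TMM scaling. A log2 fold change is mandible over femur throughout, so a negative value is lower in the mandible. Genes were called with the quasi-likelihood test of edgeR after Benjamini-Hochberg adjustment. The 12 monocyte markers were all present in both groups, summed to 8178 to 15001 CPM in the femur and 7021 to 12457 CPM in the mandible, and none of them was called. Other cell types were present too, and their shares differed between the groups. All 12 skeletal muscle markers were called higher in the mandible, with a sum of 20.3 to 42.2 CPM in the femur and 1562 to 5405 CPM in the mandible, as were 12 of 12 mesenchymal and osteoblast markers and 8 of 9 tooth epithelium markers. Of the megakaryocyte markers, 8 of 9 were called lower, and of the erythroid markers, 4 of 12. Over all tested genes, 3.88% were called higher in the mandible and 1.3% lower. The 12 neutrophil markers summed to 33831 CPM in femur S13, 3985 in femur S15 and 24551 in femur S18, and to 7206, 10686 and 4112 CPM in mandible S16, S19 and S23. Femur S15 thus lay with the mandible libraries in its neutrophil markers. Mandible S23 stood apart by sex-linked genes, with 1441 CPM of Xist, an RNA that female cells make from their inactive X chromosome, against at most 0.553 CPM in the other 5. In bulk RNA, fewer cells of a type and less RNA per cell cannot be told apart.

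Several of the 10 messenger RNAs are nearly copied elsewhere in the genome, which bears on what a count of them holds. The genome carries processed pseudogenes of many glycolytic messenger RNAs, and a read that matches gene and copy equally well has no unique place. In GENCODE M21, an annotation of GRCm38, each stretch of 50 bases (the read length) of the longest coding transcript was looked up in the transcripts of all other genes. The share also found in a gene elsewhere was 90.4% for Gapdh, 72.2% for Eno1, 68.0% for Pgk1, 41.5% for Pgam1, 30.5% for Pkm, 16.6% for Ldha and 13.5% for Aldoa. It was 0.0543% for Pfkl and 0% for Hk2 and Slc2a1. The windows below are shown because they are the coding stretches of Gapdh and Eno1, 1 per gene, found in the most other genes, and they are printed without capitals since every base is shared.
Gapdh, coding bases 493 to 542, in 84 other genes: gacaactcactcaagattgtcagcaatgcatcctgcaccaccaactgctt
Eno1, coding bases 445 to 494, in 5 other genes: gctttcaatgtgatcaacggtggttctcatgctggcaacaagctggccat
Every coding window of Pgk1, 94.2% of those of Gapdh and 83.3% of those of Eno1 were found in another gene. How reads with several positions were counted is not given in the sources used here, so the level of these genes, Gapdh above all, is uncertain, while that of Hk2, Slc2a1 and Pfkl is free of this limit.

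The quasi-likelihood test of edgeR called none of the 10 genes, and neither did DESeq2 or limma-voom. Only Aldoa had an unadjusted p under 0.05, 1 gene of 10, where 16.4% of all tested genes did. Their log2 fold changes ran from -0.95 for Pgk1 to 0.74 for Aldoa, with a median of -0.16, against -0.04 over all tested genes. The 4 genes of uptake and the upper steps had values above 0 and the 6 genes from Gapdh to Ldha values below 0, where 52.2% of all tested genes were below 0. This split moved at Pfkl, which was at -0.13 under a correction for gene length, and at Pkm, which was at 0.04 without normalization factors. The lack of calls does not show equal expression, since the 95% intervals were wide: for Pfkl, the narrowest, from -0.39 to 0.73.

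**Figure D1:**
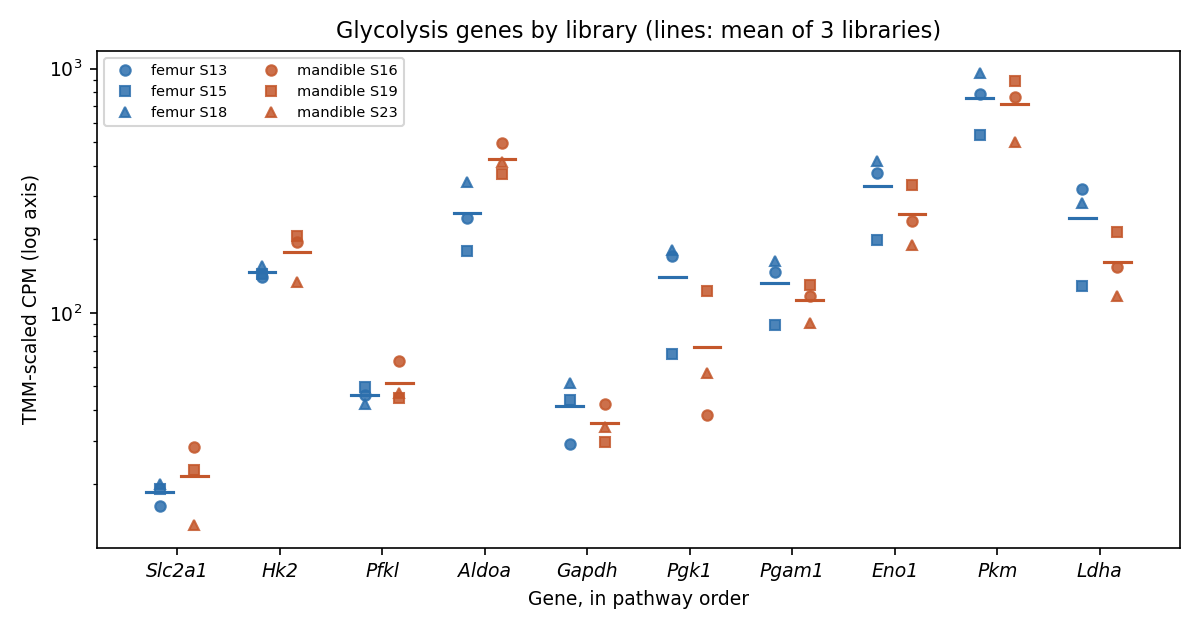
TMM-scaled CPM (log axis) of the 10 glycolysis genes in pathway order in each library, blue for the 3 femur and orange for the 3 mandible libraries, with a line at the mean of each group. The groups overlap in 9 genes, and in Aldoa the mandible libraries (371 to 496 CPM) lie above the femur libraries (180 to 343 CPM).

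Slc2a1, on chromosome 4 from 119108711 to 119137983 (GRCm38, as all positions here), was at 16.1, 19.1 and 20.0 CPM in femur S13, S15 and S18 and at 28.2, 22.7 and 13.5 CPM in mandible S16, S19 and S23. Mandible S23 was the lowest and S16 the highest of all 6 libraries, so the groups overlapped. Its log2 fold change was 0.22 (95% interval -0.56 to 1.01, adjusted p = 0.86 by the Benjamini-Hochberg adjusted quasi-likelihood test of edgeR). Hk2, on chromosome 6 from 82725025 to 82774454, encodes the inducible hexokinase that traps glucose as its phosphate. It was at 139.7, 144.1 and 155.9 CPM in femur S13, S15 and S18, and at 194.9, 206.0 and 133.8 CPM in mandible S16, S19 and S23. The femur libraries were within 1.12-fold of each other, and mandible S23 lay below all of them while S16 and S19 lay above. Its log2 fold change was 0.28 (95% interval -0.29 to 0.86, adjusted p = 0.70, same test). Pfkl, the liver-type subunit of phosphofructokinase, on chromosome 10 from 77986947 to 78010083, was at 45.9, 49.5 and 42.4 CPM in femur S13, S15 and S18 and at 63.4, 44.8 and 46.8 CPM in mandible S16, S19 and S23. Only mandible S16 was outside the femur range. Without it the log2 fold change of 0.17 (95% interval -0.39 to 0.73, adjusted p = 0.85, same test) came to -3.6e-05, and that of Slc2a1 to -0.016.

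Aldoa, on chromosome 7 from 126795234 to 126800751, encodes aldolase A, the aldolase of muscle and red cells that most other tissues also make. It was at 243.6, 179.7 and 342.8 CPM in femur S13, S15 and S18, and at 496.5, 370.9 and 414.6 CPM in mandible S16, S19 and S23. All 3 mandible libraries lay above all 3 femur libraries, the only gene of the 10 in which the groups did not overlap, where 24.2% of all tested genes had groups that did not. The mean was 427 ± 63.7 CPM (SD, n = 3) in the mandible and 255 ± 82.2 CPM (SD, n = 3) in the femur, a ratio of 1.67. The log2 fold change was 0.74 (95% interval 0.06 to 1.42), with an unadjusted p of 0.035 and an adjusted p of 0.25 by the Benjamini-Hochberg adjusted quasi-likelihood test of edgeR, and it was not called. An exact two-sided permutation test gave p = 0.1, the smallest that 3 against 3 libraries allow. Skeletal muscle markers, at 3546, 1562 and 5405 CPM in mandible S16, S19 and S23, were higher in the same 3 libraries, and mandible S19 was the lowest of the mandible libraries in both. The highest was mandible S16 for Aldoa and mandible S23 for these markers. The summed mesenchymal and osteoblast markers (9501 to 16009 CPM in the mandible, 178 to 222 CPM in the femur) were higher in the same libraries too. So were the tooth epithelium markers (5832 to 11438 CPM and 0.221 to 4.05 CPM). The part of any of these cells in the level of Aldoa was not tested. Without femur S15 the log2 fold change of Aldoa was 0.50, the lowest of the 6 fits that each left out 1 library.

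Gapdh, on chromosome 6 from 125161715 to 125166467, encodes the dehydrogenase that makes the NADH of glycolysis and is often used as a reference gene. It was at 29.1, 44.0 and 51.7 CPM in femur S13, S15 and S18 and at 42.5, 29.5 and 34.0 CPM in mandible S16, S19 and S23. The mandible libraries all fell within the femur range. Its log2 fold change was -0.24 (95% interval -0.89 to 0.42, adjusted p = 0.80, same test). The 105 genes that each hold at least 5% of the windows of Gapdh summed to 45.9 to 85.5 CPM, more than the gene itself in every library. With those counts added to the gene its log2 fold change was -0.12. The copies of every other of the 10 genes summed to at most 18.2 CPM, that of Eno1 in femur S13. Adding the copies of all genes, those of Gapdh included, moved the median of the 10 genes from -0.16 to -0.10, and this median is the mean of Gapdh and Pkm, of which Pkm stayed at -0.08.

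Pgk1, on chromosome X from 106187100 to 106203699, encodes phosphoglycerate kinase, which makes the first ATP of the lower steps. It was at 171.1, 67.9 and 181.1 CPM in femur S13, S15 and S18, and at 38.2, 123.1 and 56.6 CPM in mandible S16, S19 and S23. Femur S15 lay among the mandible libraries and mandible S19 above femur S15, and the libraries of a group spread 2.67-fold in the femur and 3.22-fold in the mandible, the widest of the 10 genes in both. The log2 fold change was -0.95 (95% interval -1.96 to 0.07, adjusted p = 0.35, same test), and -1.32 without femur S15 (adjusted p = 0.074, same test) and -1.61 without mandible S19 (adjusted p = 0.14, same test). Pgam1, the phosphoglycerate mutase of most tissues, on chromosome 19 from 41911923 to 41918660, was at 147.4, 89.0 and 162.9 CPM in femur S13, S15 and S18, and at 116.9, 130.0 and 90.5 CPM in mandible S16, S19 and S23. The mandible libraries again fell within the femur range, and the log2 fold change was -0.24 (95% interval -0.89 to 0.40, adjusted p = 0.79, same test).

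Eno1, on chromosome 4 from 150236721 to 150248879, encodes alpha-enolase. It was at 372.2, 198.8 and 419.3 CPM in femur S13, S15 and S18 and at 238.3, 334.8 and 189.1 CPM in mandible S16, S19 and S23. Femur S15 and mandible S23 were low and close to each other. The log2 fold change was -0.38 (95% interval -1.14 to 0.38, adjusted p = 0.70, same test). Pkm, on chromosome 9 from 59656368 to 59679375, encodes the pyruvate kinase of muscle and most other tissues and had the highest counts of the 10 genes. It was at 784.8, 532.6 and 956.1 CPM in femur S13, S15 and S18, and at 763.7, 886.8 and 498.2 CPM in mandible S16, S19 and S23. The same 2 libraries, femur S15 and mandible S23, were the lowest, and the groups overlapped. The log2 fold change was -0.08 (95% interval -0.84 to 0.68, adjusted p = 0.95, same test), the closest to 0 of the 10, and it turned to 0.13 without femur S18, to 0.07 without mandible S23 and to 0.04 without normalization factors.

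Ldha, on chromosome 7 from 46841475 to 46855627, encodes the lactate dehydrogenase subunit that favours the formation of lactate. It was at 322.3, 129.3 and 282.9 CPM in femur S13, S15 and S18, and at 153.4, 215.3 and 117.5 CPM in mandible S16, S19 and S23. Femur S15 lay below mandible S16 and S19, and femur S13 and S18 above every mandible library. The log2 fold change was -0.60 (95% interval -1.40 to 0.21, adjusted p = 0.50, same test), and -0.95 without femur S15 (adjusted p = 0.072, same test).

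**Figure D2:**
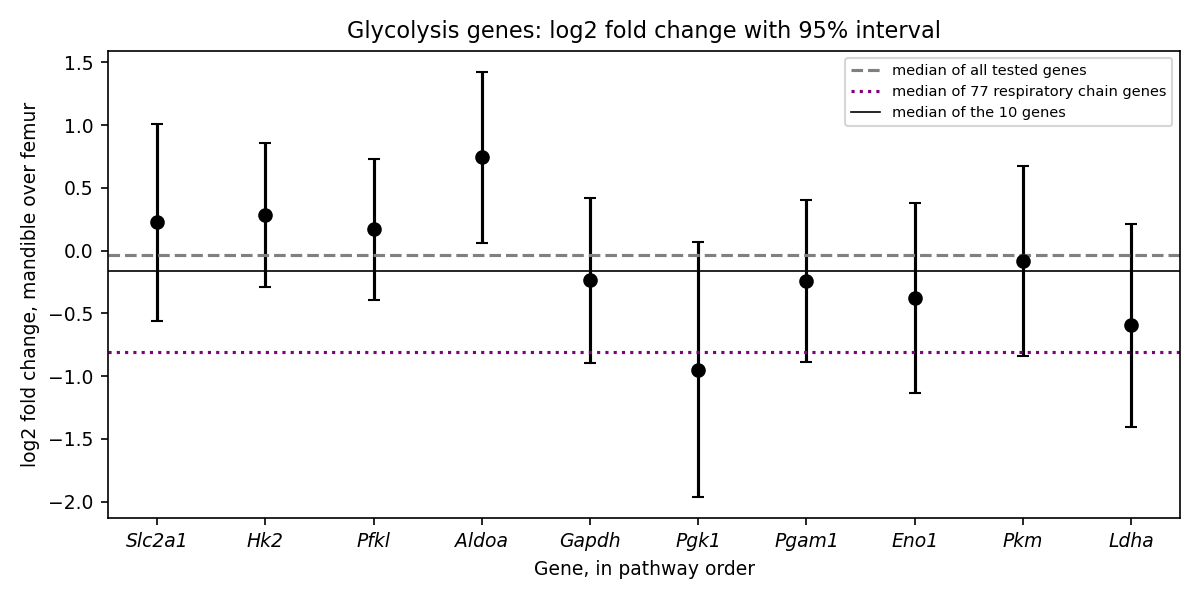
Log2 fold change, mandible over femur, of the 10 glycolysis genes in pathway order, with 95% intervals from edgeR's quasi-likelihood fit and lines at the medians of the 10 genes (-0.16), of all tested genes (-0.04) and of 77 respiratory chain genes (-0.81). The points run from 0.74 for Aldoa to -0.95 for Pgk1, and every interval but that of Aldoa includes 0.

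Certain libraries were high or low in most of the 10 genes. Femur S18 was the highest femur library in 8 of the 10 genes and femur S15 the lowest in 6, and mandible S19 was the highest mandible library in 6 and mandible S23 the lowest in 6. The 10 genes summed to 2272, 1454 and 2615 CPM in femur S13, S15 and S18 and to 2136, 2364 and 1595 CPM in mandible S16, S19 and S23. Femur S15 and mandible S23, the lowest libraries by this sum, also had the lowest sums of monocyte markers (8178 and 7021 CPM) and of neutrophil markers (3985 and 4112 CPM), and the part of either in the sum was not tested. As a description chosen after the values were seen, mean log2 CPM of Hk2, Pfkl and Aldoa minus that of the 5 genes from Gapdh to Pkm was -0.67, -0.18 and -0.79 in femur S13, S15 and S18, and 0.52, -0.17 and 0.32 in mandible S16, S19 and S23. Femur S15 and mandible S19 nearly met, and no test was made of a split chosen in this way.

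Levels of different genes were compared per length, as RPKM, which is CPM divided by the kilobases of merged exons. In the femur, Pkm had the highest level, 152 ± 42.6 RPKM (SD, n = 3), then Aldoa with 87.7, Ldha with 74.0, Pgam1 with 67.1, Pgk1 with 62.4 and Eno1 with 61.4 RPKM, and the libraries of each neighbouring pair of these 6 overlapped. Hk2 followed with 24.6 RPKM, below every library of Eno1, then Gapdh with 10.1 RPKM, Pfkl with 6.88 and Slc2a1 with 5.25 RPKM. In the mandible, Aldoa (147 ± 21.9 RPKM, SD, n = 3) and Pkm (143 ± 39.7 RPKM, SD, n = 3) came before the rest and overlapped each other. Pgam1, Ldha, Eno1, Pgk1 and Hk2 had levels of 56.7 to 29.9 RPKM there, with an overlap of each neighbouring pair, and Gapdh, Pfkl and Slc2a1 levels of 8.55, 7.74 and 6.12 RPKM. The low place of Gapdh stands beside its share of windows held in common with other genes, the highest of the 10, and merged exons can be longer than the main transcript.

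The respiratory chain genes had calls in the lower direction only. Nuclear subunits of complexes I to V pass electrons from NADH and succinate to oxygen and use the proton gradient to make ATP, and 77 of them were tested. Of these, 75 had a log2 fold change below 0, where 52.2% of all tested genes had. Of the 75, 42 had an unadjusted p under 0.05, where 1313 of all 18114 tested genes were lower at that p. There were 9 called lower, where 1.3% of all tested genes were, and none was called higher. Their median log2 fold change was -0.81, and the mandible libraries lay all below the femur libraries in 37 of them, where 11.5% of all tested genes did. The summed markers of erythroid cells (316 to 2137 CPM in the femur, 139 to 245 CPM in the mandible) and of megakaryocytes (782 to 1127 CPM and 91.0 to 152 CPM) were lower in the mandible too, without overlap, and all 12 neutrophil markers had log2 fold changes below 0, with overlap of their sums. Femur S15 was the lowest femur library both in mean log2 CPM of the respiratory chain (5.62) and in the sums of neutrophil and erythroid markers. Its mean was above that of every mandible library (5.09 to 5.35), while its neutrophil sum (3985 CPM) was the lowest of all libraries. Among the mandible libraries, S16 had the lowest mean of the respiratory chain (5.09) and the highest sum of erythroid markers (245 CPM). The part of these cells in the respiratory chain values was not tested. Complex I had a median of -0.77, with Ndufb4 (-2.11), Ndufb6 (-1.96), Ndufab1 (-1.85) and Ndufb1 (-1.73) called among 37 subunits. Complex IV, the oxidase, had a median of -1.05 with Cox7b (-1.71) and Cox7a2 (-1.31) called among 11, and complex V, the ATP synthase, a median of -0.86 with Atp5k (-1.56), Atp5e (-1.35) and Atp5g3 (-1.13) called among 16. Complexes II and III, with medians of -0.24 and -0.71, had no call among 4 and 9 subunits. The number of calls among the 77 depended on the libraries. Leaving out femur S15 gave 27 calls, femur S13 2 and femur S18 5, and leaving out mandible S16 gave 6, S19 1 and S23 10. The lower calls over all tested genes had the same order. They were 608, 62 and 95 without femur S15, S13 and S18, and 114, 58 and 163 without mandible S16, S19 and S23.

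**Figure D3:**
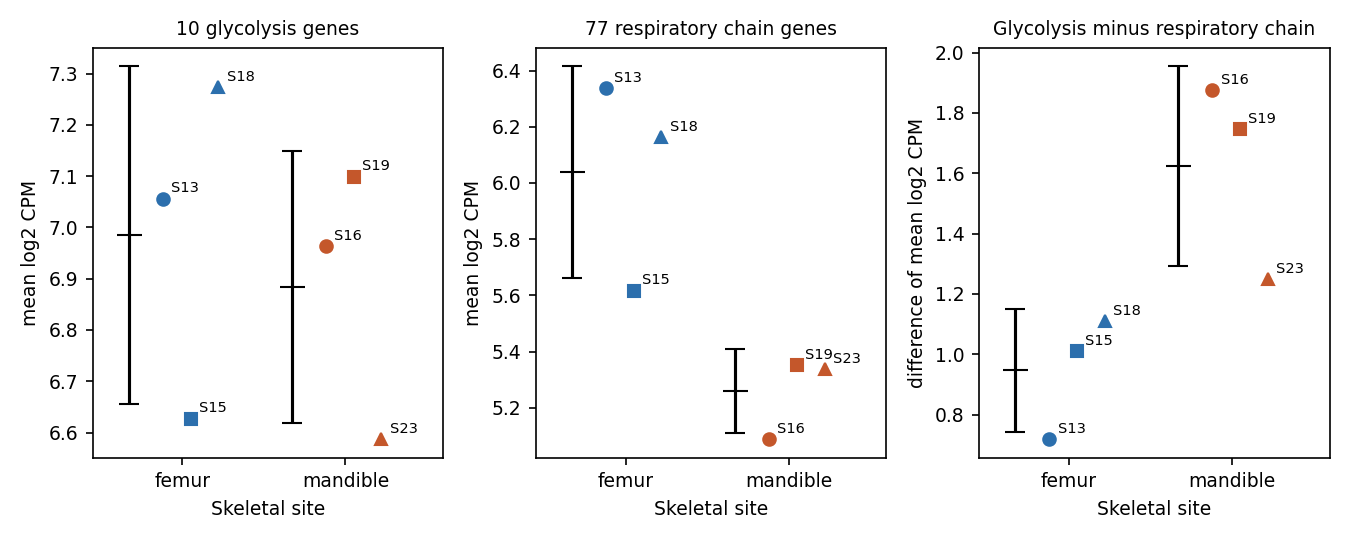
Mean log2 CPM of the 10 glycolysis genes (left), of the 77 respiratory chain genes (middle) and the difference of both means (right) in each library, with the mean and SD of the 3 libraries of a site at the side. The groups overlap in the left panel and not in the other panels, and the difference runs from 0.72 to 1.11 in the femur and from 1.25 to 1.88 in the mandible.

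In a difference between both pathways within a library the scaling of that library nearly cancels. Mean log2 CPM of the 10 genes minus that of the 77 respiratory chain genes was 0.72, 1.01 and 1.11 in femur S13, S15 and S18 and 1.88, 1.75 and 1.25 in mandible S16, S19 and S23. Every mandible library lay above every femur library, with a mean of 1.62 ± 0.33 against 0.95 ± 0.20 (SD, n = 3). The 10 genes contributed little to this: their mean log2 CPM was 6.88 ± 0.27 in the mandible and 6.99 ± 0.33 in the femur (SD, n = 3), and the groups overlapped. That of the respiratory chain was 5.26 ± 0.15 and 6.04 ± 0.38 (SD, n = 3), and they did not. The respiratory chain was chosen for this contrast with its lower values in these libraries known. The separation of the difference was thus largely given by that choice. The median log2 fold change of the 10 genes was higher than that of the respiratory chain by 0.65, and by 0.37 once a trend of expression with gene length was removed in each library. The respiratory chain genes are shorter, with a median length of 1756 bases against 3819.5 bases for the 10 genes, and length and pathway were separated only by that correction. Under it the medians were -0.27 for the 10 genes, -0.64 for the respiratory chain and -0.20 for all tested genes.

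The isoenzymes and further steps of glycolysis held the only calls of the pathway. Of 29 such genes, 24 were tested, 3 were called higher in the mandible, where 3.88% of all tested genes were, and none was called lower. Their median log2 fold change was -0.14, and -0.42 after the length correction, and it ran from -0.38 without femur S15 to -0.013 without femur S13 in the fits that each left out 1 library. Pgam2, the phosphoglycerate mutase of muscle, was at 0, 1.24 and 0.530 CPM in femur S13, S15 and S18 and at 36.2, 19.9 and 69.3 CPM in mandible S16, S19 and S23. The groups were far apart, with a log2 fold change of 6.10 (SE, standard error, 0.89, adjusted p = 0.0022 by the Benjamini-Hochberg adjusted quasi-likelihood test of edgeR), and the call was lost under limma-voom (adjusted p = 0.054). Eno3, the enolase of muscle, was at 11.5, 8.06 and 6.72 CPM in femur S13, S15 and S18 and at 57.8, 21.4 and 89.8 CPM in mandible S16, S19 and S23, with a log2 fold change of 2.69 (SE 0.48, adjusted p = 0.0074, same test). Pfkm, the phosphofructokinase subunit of muscle, was at 19.4, 12.3 and 9.85 CPM in femur S13, S15 and S18 and at 30.8, 35.3 and 58.4 CPM in mandible S16, S19 and S23. Its log2 fold change was 1.58 (SE 0.37, adjusted p = 0.031, same test), and its call was lost without femur S15, femur S18, mandible S19 or mandible S23 (adjusted p 0.055, 0.15, 0.10 and 0.15, same test). All 3 called genes are those used by skeletal muscle. The sum of the 12 skeletal muscle markers, 3546, 1562 and 5405 CPM in mandible S16, S19 and S23, had the same order over these libraries as Pgam2 and Eno3, with S23 the highest and S19 the lowest. The most abundant of these markers, Acta1, the actin of skeletal muscle, was at 942, 496 and 1862 CPM there and at no more than 0.921 CPM in the femur. Pfkm had another order, with mandible S16 the lowest, S19 next and S23 the highest. That was also the order of the summed mesenchymal and osteoblast markers (9501, 12326 and 16009 CPM in mandible S16, S19 and S23). The tooth epithelium markers (5832, 7413 and 11438 CPM) had it too. The part of any of these cells in the 3 calls was not tested.

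Of the genes that were not called, Slc2a3 (GLUT3), the glucose transporter with the highest counts of the 4 listed, was at 175.6, 81.0 and 109.2 CPM in femur S13, S15 and S18 and at 51.7, 55.7 and 72.5 CPM in mandible S16, S19 and S23. The mandible libraries lay below all femur libraries. Its log2 fold change was -1.02 (SE 0.32, unadjusted p = 0.0076, adjusted p = 0.10, same test). It was called with every gene with a count tested (adjusted p = 0.024), under the length correction (0.036) and without femur S15 (0.016), all by that edgeR test. Hk3, a hexokinase known from myeloid cells, was at 292.6, 217.4 and 231.5 CPM in femur S13, S15 and S18 and at 196.8, 161.4 and 106.4 CPM in mandible S16, S19 and S23, again without overlap, with a log2 fold change of -0.67 (adjusted p = 0.28, same test). Ldhc, known from the testis, lay outside the femur range too. It was at 2.26 to 9.19 CPM in the femur and 0 to 0.951 CPM in the mandible. Its log2 fold change was -3.56 (adjusted p = 0.13, same test). Pfkfb1 also lay below its femur range, with a mean of 0.952 CPM in the mandible and 2.79 CPM in the femur. These 4 of the 24 tested isoenzymes and further steps were thus lower without overlap, as 11.5% of all tested genes were. The 3 called genes were higher without overlap, as 12.7% of all tested genes were. These counts were not tested. The steps between the 10 genes had no call: Gpi1, the isomerase after hexokinase, had a log2 fold change of -0.39 (95% interval -1.13 to 0.35), and Tpi1, the isomerase after aldolase, of -0.03. The lactate exporters Slc16a3 (MCT4) and Slc16a1 (MCT1) had 0.23 and -0.73, Ldhb had 0.01, and Pfkfb3 and Pfkfb4, whose products set the level of the activator of phosphofructokinase, had -0.12 and -0.17. The remaining values were 0.15 for Pfkp, -0.25 for Hk1, 0.02 for Slc2a6, -0.42 for Slc2a4, 0.25 for Pfkfb2, -0.26 for Bpgm, -1.33 for Pklr, -0.76 for Eno1b, 1.11 for Eno2 and 0.01 for Aldoc, none of them called. Gapdhs and Pgk2, isoenzymes of sperm, and Hkdc1 were among the genes that did not pass the filter.

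**Figure D4:**
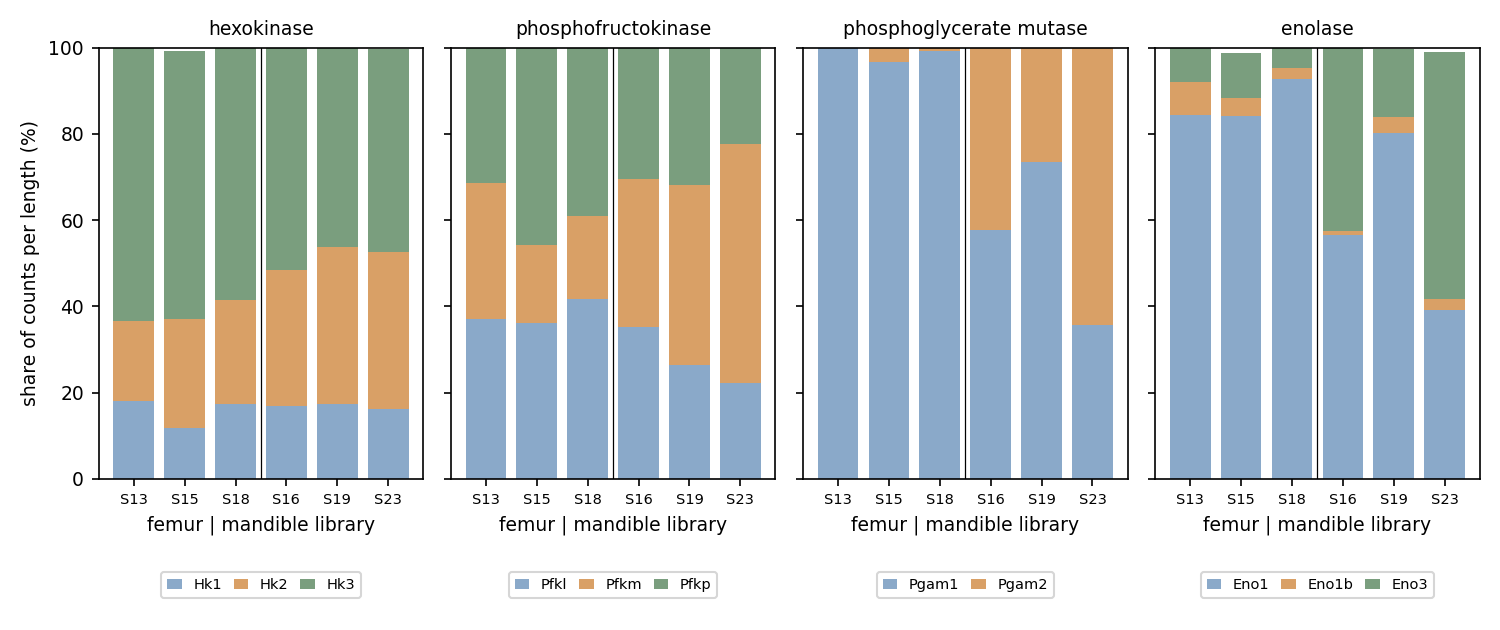
Share of each isoenzyme in the counts per length of its family, in percent, for hexokinase, phosphofructokinase, phosphoglycerate mutase and enolase, in the 3 femur (left of the line) and 3 mandible libraries. Isoenzymes at or below 2% in both group means are left out, so bars can end below 100, and Pgam2 and Eno3 take 44.4% and 38.6% in the mandible against 1.32% and 7.74% in the femur. Lengths are of merged exons, which can be longer than the main transcript, so the shares depend on them. The shares also depend on how reads with several positions were counted, which is not known. Of the windows, 72.2% of Eno1 and 41.5% of Pgam1 were found in a gene elsewhere, against 0% of Eno3 and Pgam2.

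Within a family of isoenzymes, the scaling of a library cancels in the share of counts per length. Pgam2 took 42.2, 26.5 and 64.4% of phosphoglycerate mutase in mandible S16, S19 and S23 and 0 to 3.19% in the femur, so Pgam1 had a mean share of 55.6 ± 19.01% against 98.7 ± 1.67% (SD, n = 3). Eno1 had 58.6 ± 20.6% of enolase in the mandible and 87.1 ± 4.87% in the femur (SD, n = 3), with Eno3 as the other main part, and the groups did not overlap in either gene. Pfkl had 28.0 ± 6.68% of phosphofructokinase against 38.4 ± 2.91% (SD, n = 3), beside a share of Pfkm of 43.7% against 22.9%. Their merged exons were 6675 bases for Pfkl and 3340 for Pfkm, against 13401 for Pfkp. Among the hexokinases the share of Hk2 was higher, 34.8 ± 2.87% against 22.8 ± 3.604% (SD, n = 3), and that of Hk3 lower, 48.3 ± 2.86% against 61.3 ± 2.59% (SD, n = 3), again without overlap, while Hk1 had 16.9 and 15.7%. Hk3 is also known from neutrophils, whose 12 markers all had log2 fold changes below 0 with 1 of them called, and this share was not tested against them. Aldoa made up 99.6 and 99.3% of aldolase, so no other isoenzyme accompanied its higher values. Ldha had 73.1% of lactate dehydrogenase in the mandible and 79.3% in the femur with overlap, and the share of Ldhb was 26.4% against 16.5% without overlap. No test was made of these shares.

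Promoters of glycolytic genes are textbook targets of HIF-1, the factor of the response to low oxygen, which binds ACGTG or GCGTG. RefSeq promoters (GRCm38.p6, 250 bases before to 50 after the start) were searched for both motifs on both strands, and the promoter nearest to the M21 gene start was taken for each gene. A match was present in 8 of the 10 genes, all but Aldoa and Pkm, and with every RefSeq promoter of the 10 genes counted, in 14 of 16 (87.5%), against 64.3% of 70 respiratory chain promoters and 43.8% of all 32851 promoters. These 16 are not all separate, since 2 of Aldoa and 2 of Eno1 overlap and hold the same matches. Overlap among the other promoters was not counted. The 70 promoters were matched by gene name and do not cover all 77 respiratory chain genes. The promoters of Pgk1 and Ldha, which had the lowest log2 fold changes, and of Aldoa, which had the highest, are shown with matches in capitals.
Pgk1, chrX:106186850-106187149, plus strand: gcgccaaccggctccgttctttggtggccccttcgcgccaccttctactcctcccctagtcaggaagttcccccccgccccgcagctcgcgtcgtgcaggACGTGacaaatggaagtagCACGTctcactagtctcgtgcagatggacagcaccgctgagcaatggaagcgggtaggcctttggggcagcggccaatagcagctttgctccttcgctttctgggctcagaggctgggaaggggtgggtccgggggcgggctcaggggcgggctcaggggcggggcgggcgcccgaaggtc
Ldha, chr7:46845554-46845853, plus strand: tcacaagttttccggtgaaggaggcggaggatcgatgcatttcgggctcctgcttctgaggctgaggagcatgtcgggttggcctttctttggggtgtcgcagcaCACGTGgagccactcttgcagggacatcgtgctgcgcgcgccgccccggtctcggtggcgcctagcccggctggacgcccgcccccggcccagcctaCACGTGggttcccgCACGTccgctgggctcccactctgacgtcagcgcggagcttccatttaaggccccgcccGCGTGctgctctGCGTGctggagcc
Aldoa, chr7:126800398-126800697, minus strand: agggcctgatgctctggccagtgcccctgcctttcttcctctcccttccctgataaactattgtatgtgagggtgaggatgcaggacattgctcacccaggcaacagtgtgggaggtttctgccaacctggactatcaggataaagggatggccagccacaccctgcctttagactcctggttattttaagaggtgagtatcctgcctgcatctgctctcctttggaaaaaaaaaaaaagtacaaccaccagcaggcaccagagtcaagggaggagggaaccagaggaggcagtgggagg
Pgk1 held 2 matches and Ldha 7, where CACGTG counts once on each strand. The transcription start of the printed Ldha promoter lies 4329 bases inside the M21 gene. The 2 other RefSeq promoters of Aldoa overlap and hold the same 1 match, and the other promoter of Pkm held 2. A match describes these letters only.

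None of the HIF regulators was called. Of 8 regulators, 6 had log2 fold changes above 0, with a median of 0.48, and the mandible libraries lay all above the femur libraries in 4 of them, where 12.7% of all tested genes did. Egln1, the oxygen sensor that marks HIF for degradation and is itself a HIF target, was at 40.6, 32.0 and 43.7 CPM in femur S13, S15 and S18, and at 81.2, 76.4 and 65.5 CPM in mandible S16, S19 and S23. The mandible was higher in every library, with a log2 fold change of 0.94 (adjusted p = 0.056 by the Benjamini-Hochberg adjusted quasi-likelihood test of edgeR), which missed the threshold. Hif1a had 0.55 and its partner Arnt 0.49, and after the length correction the median of the 8 was 0.19. Of 15 tested HIF targets outside glycolysis, only P4ha2, a hydroxylase of collagen, was called, at 4.16, where 3.88% of all tested genes were called higher. The median was 0.07, and -0.26 after the length correction. Col1a1, a collagen gene among the mesenchymal markers, had a log2 fold change of 7.49.

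Calls were also counted in the branches around pyruvate and glucose 6-phosphate. Of 23 genes of pyruvate oxidation and the TCA cycle, 2 were called higher, where 3.88% of all tested genes were, and none lower, with a median of -0.08. Both encode kinases that switch pyruvate dehydrogenase off. Pdk4, a form that fasting induces in muscle and heart, was at 0.663, 0.553 and 0 CPM in femur S13, S15 and S18 and at 20.5, 7.69 and 14.9 CPM in mandible S16, S19 and S23, a log2 fold change of 5.15 (adjusted p = 0.011, same test). Pdk2 was at 2.76, 4.01 and 3.71 CPM in the femur libraries and at 13.7, 13.6 and 27.5 CPM in the mandible libraries, a log2 fold change of 2.38 (adjusted p = 0.013, same test). The mandible was higher in every library for both. The most abundant genes of the list, Dlst, Mdh2 and Ogdh, had -0.09, -0.22 and 0.11. None of the 8 genes of the pentose phosphate pathway, which draws on glucose 6-phosphate to make NADPH, was called, and their median was -0.22, with -0.26 for Tkt, -0.42 for Taldo1 and -0.16 for Pgd. In these 3 genes, as in Eno1 and Pkm, mandible S23 was the lowest mandible library and femur S15 the lowest femur library.

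**Figure D5:**
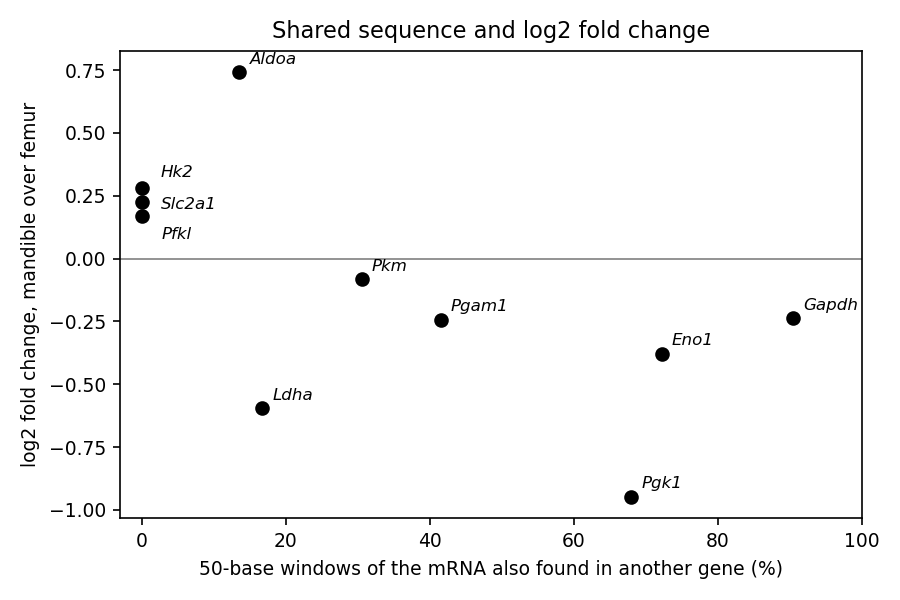
Log2 fold change, mandible over femur, of the 10 glycolysis genes against the share of 50-base windows of their messenger RNA that is also found in another gene, in percent. The 6 genes below 0 are the 6 with the highest share, from 16.6% for Ldha to 90.4% for Gapdh, and the 4 genes above 0 have 13.5% or less.

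The sign of the log2 fold changes went with the share of copied sequence as well as with the place in the pathway. The 6 genes below 0 were also the 6 with the most windows in other genes, and Aldoa, with 13.5%, and the 3 genes near 0% were above 0. These 10 points share libraries and each gene has its own depth and length, so this is a description. The counts of the copies were added, which left the sign of all 10 genes as it was. Such an addition cannot recover reads dropped for matching several places. The copies of every gene but Gapdh also summed to at most 18.2 CPM, so the unchanged sign tells little. The part of copied sequence in the fold changes was otherwise not tested.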

How the data were processed

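RNA of monocytes from femur and mandible marrow was measured in 3 libraries per site. The authors trimmed paired-end reads of 50 bases with Trimmomatic, used HISAT2 2.1.0 for mapping to GRCm38, as the methods name it, and featureCounts for counting. The deposited values are raw counts by gene, not normalized. Whether featureCounts used strand or multi-mapping reads is not given in the sources used here. Only 3031 of 52081 genes shared with GENCODE M21 have a table interval inside the M21 gene, so positions are from M21, by Ensembl identifier. Depth was 15718782 to 25371474 counts. A count of 0 allows up to 3, or 0.118 to 0.191 CPM before TMM scaling, which covers counting error only.

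The test was the quasi-likelihood test of edgeR 4.0.16 in R 4.3.3, with TMM, no covariates, a prior count of 0.125, filterByExpr at 10 counts (15 in total), and Benjamini-Hochberg adjustment over all 18114 tested genes. Members and lists were chosen with earlier results of these data known. Named were the 10 genes, every gene of the other glycolysis list, the 3 most abundant genes of each other list and its 5 called genes of largest log2 fold change, at most, the electron transport genes the study names, and Xist. Of the genes this rule allows, those that bear on the 10 genes are given. Alternatives were DESeq2 1.42.0, limma-voom (limma 3.58.1), other size factors and filters, no fold change threshold, a loess correction (span 0.4) for gene length, and each library left out. Adding the counts of copies that hold at least 5% of a gene's windows was chosen after seeing the data. Some genes and 1 sequence that meet these rules are not reported here. The tests were tried on simulated data. The remaining lists gave 0 calls among 10 T and NK and 5 endothelial markers and 1 higher call among 7 B lineage markers. Over all tested genes, 3.88% were called higher and 1.3% lower.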

Additional observations from a re-analysis of the deposited data

How the results depend on the processing

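No call was made among the 10 glycolysis genes under any of the alternatives run, leave-one-out fits included, and their median log2 fold change ran from -0.28 to 0.04 when 1 library was left out, the value above 0 being that without femur S18. Over all tested genes, DESeq2 called 1548 genes and the test of every gene with a count 1590, against 938, and leaving out 1 library gave 434 to 1565 calls. With every gene with a count tested, 19 respiratory chain genes and 5 of the other glycolysis genes were called, against 9 and 3. Of all calls in that test, 64.1% were higher in the mandible, against 74.8%. Calls among the respiratory chain genes were 1 to 27 when 1 library was left out, beside 58 to 608 lower calls over all tested genes. Of all calls, 61.2 to 87.8% were then higher in the mandible. The length correction moved the median of all tested genes by -0.16, that of the other glycolysis genes from -0.14 to -0.42, and the difference of the medians of the 10 genes and the respiratory chain from 0.65 to 0.37. That difference was 0.53 to 0.88 when 1 library was left out, and the median of the other glycolysis genes -0.38 to -0.013. Pfkl turned to -0.13 under the length correction and Pkm to 0.040 without normalization factors. When 1 library was left out, Pkm ran from -0.33 to 0.13, Slc2a1 from -0.016 to 0.41 and Pfkl from -3.6e-05 to 0.21. Pgam2 was not called under limma-voom (adjusted p = 0.054, Benjamini-Hochberg, the highest over its alternatives with all 6 libraries). The cause of these moves was not tested, other than that every gene with a count and 5 libraries change the genes and samples tested. No paired analysis was possible because the labels do not name the animal of a library. Whether femur and mandible libraries came from the same mice is thus not known. With 3 libraries per group, the narrowest 95% interval of the 10 genes ran from -0.39 to 0.73, so small differences could not be told from none.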
